A study of Mus musculus with 3 samples.

Results

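The suppressors of cytokine signalling, Socs1 to Socs7, and their relative Cish were followed in RAW264.7 macrophages, a mouse macrophage cell line. The members are the 8 genes whose symbols are carried by non-control probes of the array, out of 36870 gene names on it, and every probe with such a symbol was kept, which gave 17 probes. On 1 or more arrays 20420 gene names gave a signal well above background, all 8 members among them. SOCS proteins are brakes on cytokine receptors: a cytokine activates receptor-bound JAK kinases, these phosphorylate STAT transcription factors, and the STATs switch on the SOCS genes, whose products return to the receptor and shut the signal off. Each SOCS protein holds an SH2 domain that binds phosphotyrosine and a SOCS box that recruits elongins and a cullin ubiquitin ligase. In macrophages Socs1 is known as a brake on interferon signalling, Socs3 as a brake on signalling through gp130, the shared receptor chain of the IL-6 family, and Cish as a product of STAT5 activation.

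RNA from 3 conditions was measured on 1-colour Agilent arrays. Macrophages of the LPS group received only LPS, the bacterial ligand of TLR4. Macrophages of the LOC1 and LOC3 groups were first incubated with the Lactiplantibacillus plantarum strain LOC1 or LOC3, both isolated from tea leaves, and then received LPS. LPS acted for 3 h. Its concentration is given as 50 ng/mL in the methods but as 100 ng/mL elsewhere in the study, and the time with lactobacilli as 12 h in the series description but as 24 h in the methods. Unchallenged macrophages, the remaining condition of the study, entered only as the reference of the deposited ratios. Each condition was 1 sample on 1 array, so no SD, test or p-value between conditions can be given, and the number of arrays limits the precision of every difference. The comparisons of LOC1 and of LOC3 with LPS share the LPS array, and the ratios of all 3 arrays share the unchallenged reference.

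Levels are background-subtracted intensities, and a difference between arrays is the log2 intensity less the log2 of the array's 75th percentile, which lay at intensities of 555 for LPS, 513 for LOC1 and 516 for LOC3. The lowest intensities called well above background by the scanner software were 16.3, 14.5 and 19.8 on the same arrays. The technical SD of a log2 difference, taken from the repeat spots of probes with 10 copies per array, was 0.05 for bright probes and at most 0.33 for dim ones, the latter from only 8 to 10 probes. It covers spots of 1 array and not separate cultures. The 8 macrophage markers on the array, among them Adgre1, Cd68 and Csf1r, were well above background on all 3 arrays, and their median difference on the log2 scale was -0.39 for LOC1 and -0.19 for LOC3. Of the markers of other cell types, 3 of 4 T cell, 1 of 3 B cell, 1 of 4 epithelial and 3 of 3 fibroblast genes gave a detected signal on 1 or more arrays. Cd8a, Cd79a, Cdh1, Krt8 and Krt18 were not well above background on any, whereas Cd4, a T cell marker, had intensities of 895, 738 and 757. The part of these markers in the results was not tested.

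The proximal promoters of the 3 members that stood highest over unchallenged macrophages, Cish, Socs1 and Socs3, are shown. They differ in the kind or the number of cytokine response letters they hold. They were taken from RefSeq on GRCm38.p6, in which 4 of the 8 members have a promoter entry, and each runs 5′ to 3′ on the strand of its gene. Capitals mark matches to 2 motifs searched on both strands in windows from 250 bases before to 50 bases after the start: the STAT binding element known as GAS, spelled TTCNNNGAA, and the core of the interferon-stimulated response element (ISRE), spelled GAAANNGAAA.
Cish, chr9:107296409-107296678, plus strand: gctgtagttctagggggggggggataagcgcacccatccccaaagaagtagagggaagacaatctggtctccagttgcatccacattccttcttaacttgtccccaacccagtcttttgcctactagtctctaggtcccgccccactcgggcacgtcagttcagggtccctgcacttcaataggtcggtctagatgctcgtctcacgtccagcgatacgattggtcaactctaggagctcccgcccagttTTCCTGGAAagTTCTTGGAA
Socs1, chr16:10785537-10785786, minus strand: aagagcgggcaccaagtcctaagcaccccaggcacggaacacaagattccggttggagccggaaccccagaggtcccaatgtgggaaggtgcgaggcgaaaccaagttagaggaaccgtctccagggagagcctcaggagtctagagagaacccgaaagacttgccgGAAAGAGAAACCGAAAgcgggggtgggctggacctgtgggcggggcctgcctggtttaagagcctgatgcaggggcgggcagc
Socs3, chr11:117969367-117969616, minus strand: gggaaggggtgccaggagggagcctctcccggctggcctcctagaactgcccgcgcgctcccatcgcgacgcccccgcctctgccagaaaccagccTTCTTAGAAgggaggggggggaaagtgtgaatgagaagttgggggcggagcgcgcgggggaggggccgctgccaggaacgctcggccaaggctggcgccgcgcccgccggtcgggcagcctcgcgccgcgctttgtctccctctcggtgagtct

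The Cish promoter held 2 GAS matches, which lay at positions 1 to 9 and 12 to 20 counted from the start of the transcript. Of 32851 promoters of 300 bases, 8.3% held at least 1 GAS match and 0.457% held at least 2. Socs3 held 1 GAS match, from -154 to -146. The Socs1 promoter held no GAS match but 2 ISRE cores that overlap each other, from -83 to -74 and from -77 to -68, against 3.44% of all promoters with at least 1 and 0.225% with at least 2. Socs4, whose promoter entry lies at chr14:47276670-47276919, held neither motif. The NF-kB consensus, found in 8.46% of promoters, was found in none of these 4 windows. A match is a string of letters and not a measured binding site.

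With LPS, the members split into strongly and weakly changed genes. Probes were listed in the deposited ratios only where they differed at least 2-fold from unchallenged macrophages, and 5 of the 17 member probes were listed as higher with LPS and 1 as lower, against 7.08% listed as higher and 6.31% listed as lower among all 56605 probes. The 5 higher genes were Socs1, Socs2, Socs3, Socs7 and Cish, each with 1 probe, and the lower gene was Socs5. No probe of Socs4 or Socs6 was listed with LPS.

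Socs3, the feedback inhibitor of gp130 receptors, had a log2 ratio to unchallenged macrophages of 7.21 with LPS against 6.42 with LOC1 and 6.81 with LOC3, which are 148-fold, 85.5-fold and 112-fold. Cish, which acts on receptors that use STAT5, had log2 ratios of 6.78, 5.48 and 5.48 in the same order, or 110-fold, 44.6-fold and 44.7-fold. For Socs1, which inhibits JAK kinases directly, they were 6.34, 5.73 and 6.04, or 81.1-fold, 53.3-fold and 66.0-fold. These 3 members therefore stood far above the unchallenged reference on every array, and highest on the LPS array. The ratio of Cish rested on a low denominator, since the unchallenged intensity that it implies on the scale of the LPS array was 20.4, just over the lowest intensity well above background of 16.3. The implied intensities of Socs1 and Socs3 were 105 and 667.

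The other listed members changed less. Socs7, a family member with known roles in insulin signalling, had log2 ratios of 1.89 with LPS against 2.26 with LOC1 and 2.34 with LOC3, or 3.69-fold, 4.79-fold and 5.07-fold over unchallenged macrophages. Socs2, the feedback inhibitor of growth hormone signalling, had ratios of 1.55, 1.70 and 1.38, or 2.92-fold, 3.24-fold and 2.60-fold, from a dim probe whose implied unchallenged intensity was 17.1. Socs5, described as a regulator of EGF receptor and IL-4 signalling, was the only member listed as lower, with a log2 ratio of -1.02 or 2.03-fold lower with LPS. It was left blank with both strains, and the values rebuilt from the intensities were -0.84 with LOC1 and -0.80 with LOC3, or 1.79-fold and 1.74-fold lower. Socs5 thus lay close to the 2-fold threshold on all 3 arrays, just past it with LPS and just under it with either strain.

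**Figure D1:**
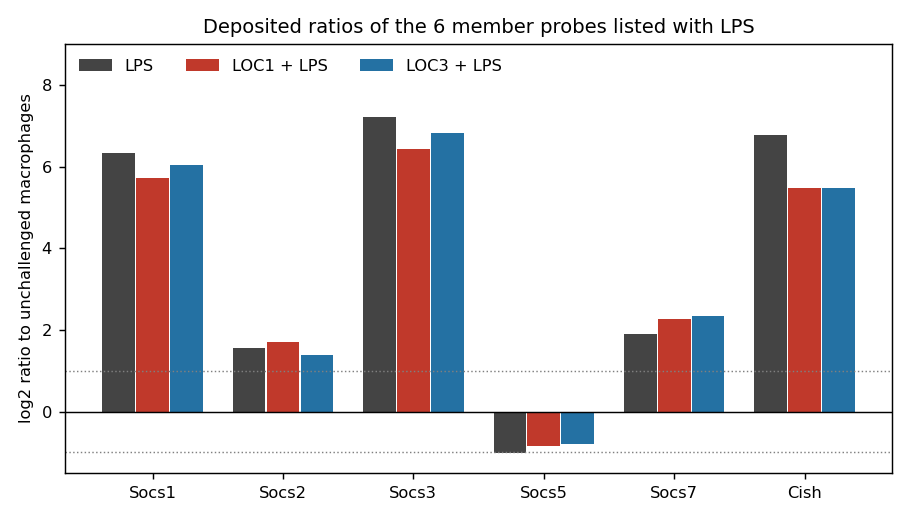
Log2 ratio to unchallenged macrophages (y axis) of the 6 member probes listed with LPS (x axis), with 1 bar per array for LPS, LOC1 and LOC3 and dotted lines at 2-fold; the Socs5 bars for LOC1 and LOC3 were rebuilt from the intensities. Socs1, Socs3 and Cish stand between 5.48 and 7.21 on all 3 arrays, and Socs5 is the 1 probe below 0.

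Of the 17 member probes, 13 were well above background on all 3 arrays and 4 on none, and no member spot was marked as an outlier. All 11 probes designed on a RefSeq mRNA were well above background on every array, as were 2 of the 6 without such an accession. Cish, Socs1, Socs3, Socs5 and Socs7 have 1 probe each, so that no second probe checks them.

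Cish was the only member past 2-fold between arrays, and it was lower with both strains. Its probe lies at chr9:107204196-107204255 of mm9 on the plus strand, within the mRNA NM_009895. The intensity was 2234 with LPS against 821 with LOC1 and 826 with LOC3, so the lactobacilli arrays were close to each other and well under the LPS array. The log2 difference from LPS was -1.33 with either strain, 2.52-fold lower, and 0.00 between the strains. The LPS differences were 26.6 times the technical SD. Cish kept 39.7% of its LPS signal with either strain after scaling. Among probes measured on both arrays, 335 of 27512 lay lower than Cish with LOC1 and 297 of 26368 with LOC3. Among 13 member probes compared, 1 was lower and 0 were higher by 2-fold or more with each strain. Over all probes, 4.39% were lower by that much and 2.2% were higher with LOC1, and 3.86% and 2.56% with LOC3. By genes, 1 of 8 members was lower with each strain, when 3.81% of genes were lower and 2.49% higher with LOC1, and 3.18% and 3.0% with LOC3. A share of 1 in 8 is a single gene, and nothing further about the family is read from it.

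**Figure D2:**
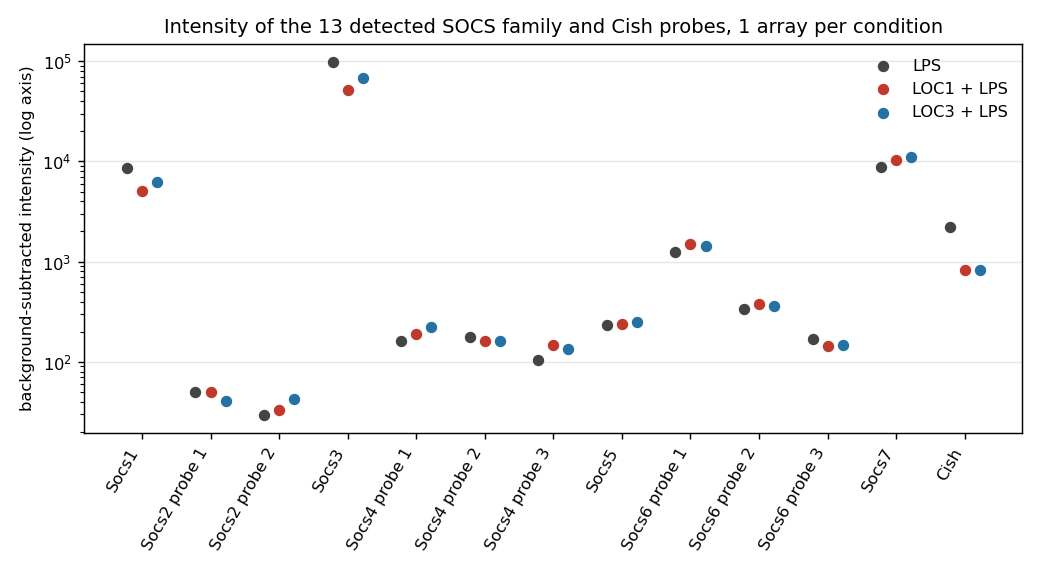
Background-subtracted intensity (y axis, log scale) of the 13 member probes well above background on all 3 arrays (x axis), with 1 point per array before scaling between arrays. Cish drops from 2234 with LPS to 821 and 826, Socs1 and Socs3 are highest with LPS, and Socs7 is highest with LOC3; levels of different probes are not comparable.

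Socs3 was lower with both strains, under the 2-fold threshold. Its probe, at chr11:117827480-117827539 of mm9 on the minus strand within NM_007707, had intensities of 98815 with LPS against 51543 with LOC1 and 67913 with LOC3, and it was not saturated. The log2 difference was -0.83 with LOC1, or 1.77-fold lower, and -0.44 with LOC3, or 1.35-fold lower. LOC1 was lower than LOC3 by a log2 difference of -0.39, which is 7.8 times the technical SD. The 3 arrays were thus ordered LPS, LOC3, LOC1, and 56.4% of the LPS signal was left with LOC1 against 73.8% with LOC3.

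Socs1 showed the same order of arrays with smaller steps. Its probe, at chr16:10783951-10784010 of mm9 on the minus strand within NM_009896, had intensities of 8496 with LPS against 5043 with LOC1 and 6272 with LOC3. The log2 differences from LPS were -0.64 and -0.33, or 1.56-fold and 1.26-fold lower. Between the strains the log2 difference was -0.31, which is 6.1 times the technical SD. The signal left was 64.2% with LOC1 and 79.3% with LOC3. For both Socs1 and Socs3 the strains were therefore apart by more than the spot error, whereas for Cish they were not, and whether separate cultures would show these differences is not measured here. The spot error that Feature Extraction gives, propagated to a log2 difference, was larger, at 0.20 for each of these 3 probes, and the strain differences of Socs1 and Socs3, and that of Socs1 between LOC3 and LPS, were under 2 such errors.

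**Figure D3:**
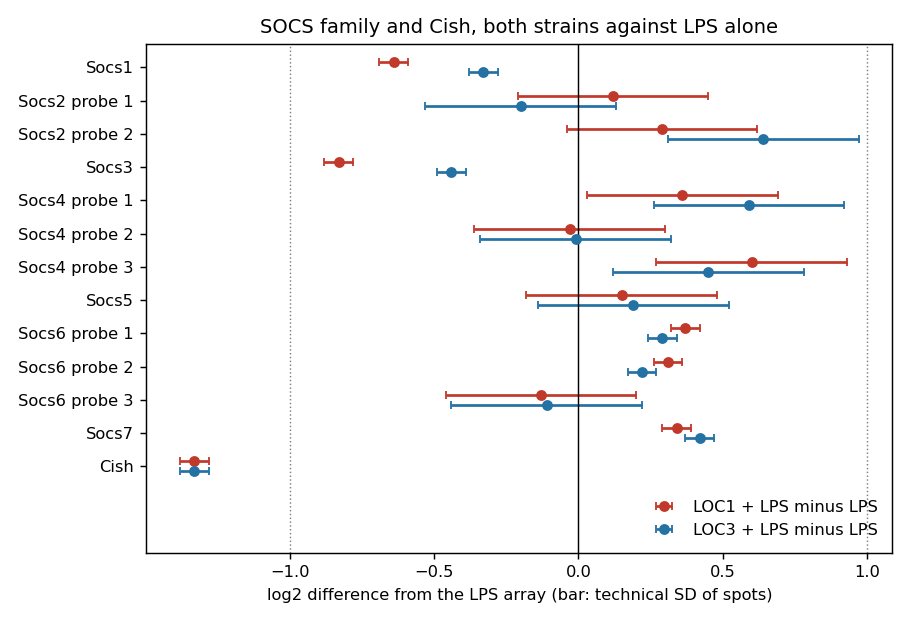
Log2 difference from the LPS array (x axis) of the 13 detected member probes (y axis), with LOC1 and LOC3 as points, the technical SD of spots as bars (0.05 for bright and 0.33 for dim probes) and dotted lines at 2-fold. Cish lies at -1.33 with both strains, Socs3 and Socs1 lie between -0.83 and -0.33, and the probes of the other genes lie between -0.20 and 0.64.

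Socs7 was slightly higher with both strains. Its probe, at chr11:97259763-97259822 of mm9 on the plus strand, had intensities of 8873 with LPS against 10394 with LOC1 and 11038 with LOC3. LOC1 lay above LPS by a log2 difference of 0.34 and LOC3 by 0.42, and the strains differed by -0.08. Both differences from LPS exceeded the technical SD, neither approached 2-fold, and that of LOC1 was under 2 of the spot errors of Feature Extraction, 0.20 each.

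Socs6, a family member described as acting on receptor tyrosine kinases, had 3 detected probes that did not move together. The brightest had intensities of 1258, 1508 and 1436 and differed from LPS by 0.37 with LOC1 and by 0.29 with LOC3 on the log2 scale. The second had 334, 382 and 361, with differences of 0.31 and 0.22. The third had 170, 145 and 147, with differences of -0.13 and -0.11, within the technical SD of dim probes. So the bright probes were higher with both strains, and the dim one did not follow them. Each of the differences of the bright probes was under 2 of the spot errors of Feature Extraction, 0.20 and 0.21. The remaining Socs6 probes were not well above background on any array.

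Socs4, which like Socs5 has a long N-terminal region before its SH2 domain, also had 3 detected probes. Their intensities were 161, 190 and 225 for the first, 177, 161 and 163 for the second, and 105, 147 and 133 for the third. The log2 differences with LOC1 were 0.36, -0.03 and 0.60, and with LOC3 they were 0.59, -0.01 and 0.45. The second probe was level across the arrays and the others were higher with both strains, by up to 1.8 times the technical SD of dim probes. This level probe and the dim Socs6 probe are the 2 detected member probes without a RefSeq mRNA accession, and the part of this was not tested.

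Socs5 and Socs2 showed no difference that all their probes shared beyond the spot error. The Socs5 probe, at chr17:87533521-87533580 of mm9 on the plus strand, had intensities of 235 with LPS against 241 with LOC1 and 249 with LOC3, and log2 differences of 0.15 and 0.19. The listed Socs2 probe, at chr10:94875066-94875125 of mm9 on the minus strand, differed from LPS by 0.12 with LOC1 and by -0.20 with LOC3 on the log2 scale. The other detected Socs2 probe had intensities of 29.3, 33.0 and 42.3 and log2 differences of 0.29 and 0.64, and it was not listed in the deposited ratios. With LOC3 the probes of Socs2 thus pointed in opposite directions, at intensities near the lowest called well above background. The remaining Socs2 probes, the farther of them 27.5 kb from the other detected probe, were not well above background on any array. One of these was listed in the deposited ratios with LOC3 alone, from an intensity of 17.1, and gives no fold here because neither side is above background.

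Over the 13 detected probes, 8 lay above 0 and 5 below with LOC1, with a median log2 difference of 0.15 against -0.01 over all 30387 probes compared. With LOC3, 7 lay above and 6 below, with a median of 0.19 against 0.02 over 30041 probes. Between the strains no member probe was past 2-fold, when 2.4% of 29223 probes were in either direction, and 5 lay above 0 and 8 below. The family therefore held genes on both sides of 0 in each comparison. Cish, Socs3 and Socs1, the members with the largest LPS ratios, were lower with the lactobacilli, and Socs7 was higher. The same LPS array enters the LPS ratio and the difference from LPS, so the 2 are not independent.

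These directions were compared across ways of scaling the arrays. With median scaling the median of all genes moved to 0.22 with each strain, from 0.00 with LOC1 and 0.03 with LOC3. Across all the settings tried Cish ranged from -1.37 to -1.11 with LOC1 and from -1.38 to -1.15 with LOC3, past 2-fold in each. Socs3 ranged from -0.95 to -0.61 with LOC1 and from -0.60 to -0.25 with LOC3. For Socs1 the ranges were -0.68 to -0.42 and -0.41 to -0.15, and for Socs7 they were 0.28 to 0.56 and 0.33 to 0.60.

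**Figure D4:**
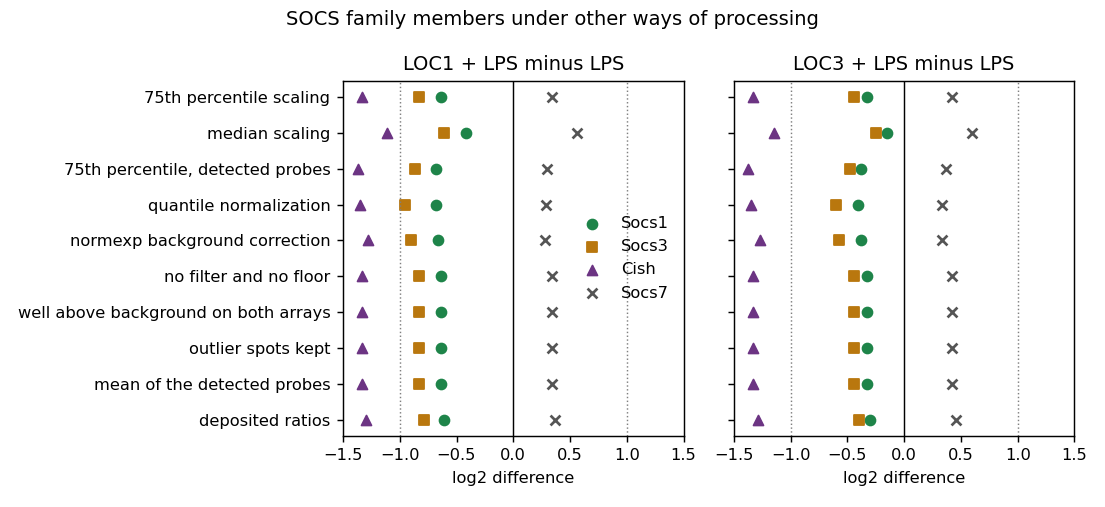
Log2 difference from the LPS array (x axis) of Cish, Socs1, Socs3 and Socs7 under each scaling, background correction, filter and source of values (y axis), with LOC1 in the left panel, LOC3 in the right panel and dotted lines at 2-fold. Cish stays between -1.38 and -1.11, and Socs1 and Socs3 stay below 0 and above -1.

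The genes around the members in the pathway were counted by role, each gene by its brightest probe. Of the 11 genes for JAK kinases and STAT factors, 10 were compared and none was past 2-fold with either strain, with a median log2 difference of 0.10 with LOC1 against 0.23 with LOC3. The median over all genes compared was 0.00 with LOC1 and 0.03 with LOC3. None of the 6 partners of the SOCS box, which are elongins, cullins and RING proteins, was past 2-fold, with medians of 0.08 and 0.12. None of the 13 other brakes, which are phosphatases, PIAS proteins, Usp18, Cbl ligases and the adaptor Sh2b3, was past it either, with medians of 0.02 and 0.03. Other detected probes of Ptprc, the phosphatase CD45, reached -1.86 with LOC1 and -1.56 with LOC3, and another probe of the phosphatase Ptpn1 reached -1.02 with LOC1. Counts of 0 in lists this short lie near the share over all genes, of which 3.81% were lower and 2.49% higher by 2-fold with LOC1 and 3.18% and 3.0% with LOC3, and nothing about the lists is read from them.

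The ligands and receptors were counted against the same shares. Of 16 cytokines that signal through JAK and STAT, 11 were compared with LOC1, of which 4 were past 2-fold upwards and 3 downwards, and 10 were compared with LOC3, of which 3 were higher and 1 was lower. Among all genes, 2.49% were higher and 3.81% lower with LOC1, and 3.0% and 3.18% with LOC3. Ifnb1, the interferon whose receptor Socs1 restrains, had intensities of 1251 with LPS against 29911 with LOC1 and 18122 with LOC3, with log2 differences of 4.69 and 3.96. Csf2, which encodes the growth factor GM-CSF that signals through STAT5, had 245, 1161 and 653, with differences of 2.36 and 1.52. Il6, a ligand of gp130 receptors, had 36658, 89676 and 80066, with differences of 1.40 and 1.23. Il12b, the shared subunit of IL-12 and IL-23, moved the other way, with 754, 166 and 203 and differences of -2.07 and -1.79. Il10, a ligand that signals through STAT3, and Ebi3, a subunit of IL-27, also lay under LPS, with differences of -1.21 and -0.47 for Il10 and of -1.09 and -0.82 for Ebi3. The ligands of the pathway thus held genes on both sides of 0 with each strain.

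Of 21 receptor genes, 19 were compared with LOC1 and 18 with LOC3. By the brightest probe none was at least 2-fold higher. On that basis 5 with LOC1 and 4 with LOC3 were at least 2-fold lower, with list medians of -0.33 and -0.37. Among all genes, 3.81% were lower with LOC1 and 3.18% with LOC3. Csf2rb, the signalling chain of the GM-CSF receptor, had intensities of 15928 with LPS against 4636 with LOC1 and 5905 with LOC3. Its log2 differences were -1.67 and -1.33, and its detected probes ranged from -1.86 to -1.21 with LOC1 and from -1.62 to -0.61 with LOC3. The near-identical paralog of Csf2rb, Csf2rb2, an IL-3 receptor chain, had 10368, 3735 and 4272 and differences of -1.36 and -1.18. The probes of these genes may share transcripts. Il6ra, the IL-6 binding chain, had 2781, 1087 and 1290 and a difference of -1.24 with LOC1, and with LOC3 it lay just past the 2-fold threshold. Its other detected probe was under 2-fold, at -0.63 with LOC1 and -0.97 with LOC3. Lifr, a chain of the LIF receptor, was measured only with LPS, at a dim 43.2, and was lower by at least 2.76-fold with LOC1. With LOC3 it was lower by at least 2.03-fold. These chains were named for being past 2-fold, and their partner chains lay near 0: Csf2ra, the GM-CSF binding chain, differed by 0.01 and 0.10, and Il6st, which encodes gp130, by -0.09 and 0.06. Il15ra, the IL-15 binding chain, lay above LPS by 0.89 and 0.82 by its brightest probe. Its detected probes reached 1.51 with LOC1 and 1.41 with LOC3, past 2-fold. Il4ra, also counted here as lower with LOC1, is described with the STAT targets.

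Of 16 genes taken as STAT targets of macrophages, 14 were compared, with medians of 0.14 and 0.17. Of these, 2 were at least 2-fold lower with LOC1 and 1 was at least 2-fold higher with LOC3. Against 3.81% of all genes lower with LOC1 and 3.0% higher with LOC3, such small counts are not read as a result about the list. Bcl3, a nuclear cofactor of NF-kB, had intensities of 45037 with LPS against 16616 with LOC1 and 23337 with LOC3, and log2 differences of -1.33 and -0.84. Il4ra, the IL-4 receptor chain, had 5252, 2396 and 2887 and differences of -1.02 and -0.76, but its other detected probe was at -0.10 and 0.09. Il4ra is also counted among the receptors, and Osm, another gene of this list, among the cytokines. Bcl6, a transcriptional repressor, had 3691, 6191 and 8017 and differences of 0.86 and 1.22, although its probes ranged from -0.55 to 0.86 with LOC1.

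**Figure D5:**
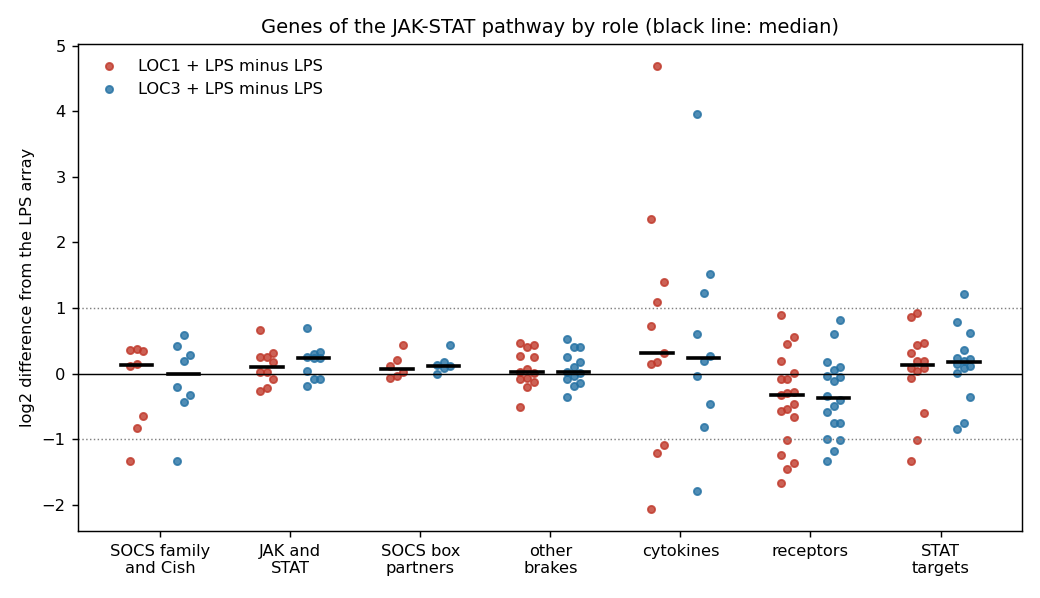
Log2 difference from the LPS array (y axis) of the genes compared, by role in the pathway (x axis), with 1 point per gene for LOC1 and for LOC3, black lines at the list medians and dotted lines at 2-fold. Cytokines spread from -2.07 to 4.69 with LOC1, and the receptor medians lie at -0.33 and -0.37.

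The genes nearest to each member were sought among 3271 probes that were well above background on all 3 arrays and listed in all 3 columns of the deposited ratios, by Euclidean distance over the 3 log2 ratios. Cish lay nearest to Cd83, a surface marker of activated antigen-presenting cells, with a distance of 0.42 and ratios of 6.87 with LPS against 5.16 with LOC1 and 5.23 with LOC3. Next to it came Il12b at 0.54 and Serpina3i, a serine protease inhibitor, at 0.69. Socs3 lay nearest to Cfb, complement factor B, at 0.16, and then to Tnfaip3, the NF-kB inhibitor A20, at 0.17. For Socs1 the nearest were Serpina3i at 0.63, Vgf at 0.64 and Cd69 at 0.66, so that none was as close to it as Cfb and Tnfaip3 were to Socs3. Socs7 lay nearest to 4833419F23Rik at 0.07, Rnf31, a subunit of the linear ubiquitin ligase, at 0.08 and Sap30 at 0.09, and Socs2 to Dcbld2 at 0.15, 6230400D17Rik at 0.15 and Art3 at 0.17. Ratios as small as those of Socs7 and Socs2 have many neighbours, and the distances describe 3 arrays only.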

How the data were processed

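Cy3-labelled RNA of RAW264.7 macrophages was hybridised to 1-colour Agilent mouse arrays, 200 ng and 1 array per condition, all 3 on 1 slide in 1 scan. The authors deposited spot intensities from Feature Extraction (version 12.0.3.1 per the file headers), which subtracts the background and a spatial trend, without scaling between arrays. From GeneSpring they deposited log2 ratios of 13135 probes, with blanks under 2-fold. The scale, set against the intensities, is log2, each column being the array less 1 common reference after a constant shift, which relative to LPS was 0.15 for LOC1 and 0.14 for LOC3. The column medians were 1.05, -1.03 and -1.04. The direction follows the unchallenged reference of the study's design. Blanks of listed probes were rebuilt with the same shift.

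Control spots and outlier spots (135, 118 and 133) were left out, and log2 intensities were centred on the 75th percentile of each array. Signals under the scanner's detection call were set to the lowest detected signal of the array, which makes such a difference a bound. Genes were represented by their brightest probe. A bright probe had a mean log2 level of at least -1 relative to the 75th percentile. A 2-fold threshold was used with no test, and the t-test of the methods needs more arrays. Probe coordinates (mm9) were copied from the deposited files, and all 8 symbols were found in the RefSeq table. The members and lists were chosen with earlier results of these data known. By rule, all members were named, up to 4 genes past 2-fold per pathway list, and the 3 nearest genes of each member listed in all 3 columns, of which 1 is not reported here. The alternatives were median scaling, the 75th percentile over detected probes, quantile normalization, normexp background correction (limma 3.58.1, R 4.3.3, offset 50), other filters, outlier spots kept, the mean of the detected probes, the deposited ratios, a 3-fold threshold and a threshold of 2 spot errors. Python 3.11.15, numpy 2.4.6, pandas 2.3.3 and matplotlib 3.10.9 were used.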

Additional observations from a re-analysis of the deposited data

How the results depend on the processing

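No paired analysis was possible because each condition has 1 array. With a 3-fold threshold the counts of member probes and of member genes past the threshold fell from 1 to 0 with LOC1 and with LOC3, since Cish lies between 2-fold and 3-fold. With no filter and no floor, which adds probes at background, the count of member probes rose to 2 for LOC3 against LPS and to 1 for LOC1 against LOC3. Of 207 recomputed differences of the member genes, 182 moved by less than the technical SD and 25 by more, and in none did a gene past 2-fold change sign. Among those under 2-fold, Socs2 with LOC3 went from -0.20 to 0.22 and LOC1 against LOC3 from 0.32 to -0.02 as the mean of its detected probes, since its probes disagree. With median scaling Socs1 moved to -0.42 with LOC1 and -0.15 with LOC3. Raising dim signals to the floor could not change the 6 member probes listed with LPS, as all their signals lie above it. Signal over background limits Socs2, Socs4, Socs5 and the dimmest Socs6 probe, and 1 array per condition limits all differences.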
